A study of Arabidopsis thaliana with 12 samples.

Results

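Transcript levels of *Arabidopsis thaliana* seedlings labelled *ali1* were compared with those labelled Col-0 after pretreatment with oxo-C14-HSL and a challenge with flg22. This comparison takes in 6 of the 12 libraries, 3 per group, and the remaining 6 (both genotypes pretreated with the solvent acetone and challenged with flg22) served as its background. Col-0 is the wild type, and *ali1* is a single T-DNA insertion line (N560407) in the *ALI1* gene in the same Columbia background. Whole seedlings, 2 weeks and 3 days old at challenge, were pretreated for 3 days with oxo-C14-HSL at 6 µM or with acetone, and every group was then given 100 nM flg22 and harvested 2 h later, so that no group was free of the elicitor. Levels are given as FPKM, a fragment count scaled to exon length and library size, with 1 value per group over its 3 libraries. The *ali1* and Col-0 values came from separate cuffdiff runs, and no value per library was used here. The ratios below are therefore a description, with no replicate error, no interval and no test, and each was taken as log2 of *ali1* over Col-0 with 0.1 FPKM added to both, centred on the median of all kept loci. Of 36101 loci in the tables, 17267 reached 1 FPKM in either oxo-C14-HSL group and were kept. The other 18834 were under 1 FPKM in both groups, 11059 of them listed at 0 in both.

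*N*-acyl homoserine lactones are the signals by which many Gram-negative bacteria sense their own density, and oxo-C14-HSL is a long-chain member with a 3-oxo group that is made by rhizobia. Plants exposed to it can enter a primed state, in which defence genes respond faster or more strongly to a later attack. flg22 is a peptide of bacterial flagellin that is perceived by the receptor kinase FLS2 and sets off MAP kinases, WRKY transcription factors and the synthesis of indolic antimicrobials. *ALI1* encodes a putative sugar kinase of the GHMP family, related to galactokinase and glucuronokinase, which phosphorylate monosaccharides for nucleotide sugar and cell wall synthesis.

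The level of the disrupted gene itself was read first. *ALI1* (AT5G14470, chr5:4662775-4664681 on the minus strand, with 6 exons) stood after oxo-C14-HSL at 11.1 FPKM under the Col-0 label and 30.1 FPKM under the *ali1* label. After acetone it stood at 14.98 FPKM and 27.4 FPKM, respectively. *ALI1* was thus higher under the *ali1* label with either pretreatment, by a log2 ratio of 1.46 (2.75-fold) after oxo-C14-HSL and 0.91 after acetone, which goes against a label of a disrupted gene. An FPKM over the whole locus does not show on which side of the insertion the reads lie, and the description fields of the sample labels name the table of the other genotype. The line itself had been selected by PCR on genomic DNA for the insertion and on cDNA for a missing *ALI1* band, on plants and not on these libraries. Groups are named below by their labels, and every direction given depends on them. The 24 other kept loci within 50 kb of *ALI1* lay between -1.18 and 0.24, and 1 of them was past 2-fold, the noncoding locus AT5G02225 at 2.36 FPKM under Col-0 and 0.966 FPKM under *ali1*. The directly flanking AT5G14460 (22.3 and 22.6 FPKM) and AT5G14480 (6.70 and 6.46 FPKM) had ratios of 0.05 and -0.03.

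Among the other genes of the same sugar pathways, 10 of 12 listed members were kept, 5 above 0 and 5 below, with a median ratio of -0.0016. *MIOX2* and *MIOX4*, which oxidise myo-inositol to glucuronate, were lower under the *ali1* label. *MIOX4* stood at 36.3 FPKM under Col-0 and 18.9 FPKM under *ali1* (ratio -0.91), and *MIOX2* at 219.8 FPKM and 144.1 FPKM (ratio -0.58). The acetone ratios of both had the same sign (-0.58 and -0.41). The glucuronokinase gene *GLCAK* (25.1 and 26.54 FPKM), the galactokinase gene *GALK* (15.6 and 13.7 FPKM) and the UDP-sugar pyrophosphorylase gene *USP* (17.9 and 19.1 FPKM) had ratios of 0.10, -0.17 and 0.12. No member other than *ALI1* was past 2-fold.

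Markers of leaf and shoot, root and vascular tissue were detected under both labels. Under 1 FPKM in both groups were 13 of 24 root markers, 5 of 25 leaf and shoot markers and 3 of 14 vascular markers. Summed over their members, leaf and shoot markers were at 20916 FPKM under Col-0 and 18561 FPKM under *ali1*, root markers at 705 and 694 FPKM, and vascular markers at 181 and 188 FPKM. The leaf sum holds photosynthesis genes such as *CAB1*, at 7667 and 5642 FPKM. The root sum is mostly *GL2*, which shares its locus with another gene and, like AT1G07913, AT2G04655, *HSFA2*, *GolS1*, *HSFA7A*, *CYC1BAT*, *ICK1* and *CYCD3* below, was named after its values were seen. Of 18 flower, pollen and seed markers, 14 were under 1 FPKM in both groups, and 2 and 4 were listed at 0. An exception was *PI*, a floral homeotic gene, at 50.4 FPKM under Col-0 and 93.9 FPKM under *ali1*, and at 106.4 and 75.5 FPKM after acetone. In such bulk tissue, fewer cells of a type and less RNA per cell cannot be told apart.

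Most loci were at similar levels in both groups, since 93.7% of the kept loci lay within 1.5-fold. At least 2-fold higher under *ali1* were 106 loci (0.614% of those kept), and at least 2-fold lower were 259 (1.5%). At 1.5-fold the counts were 299 higher (1.73%) and 786 lower (4.55%). Loci past 2-fold were thus more often on the lower side (71.0%), but this share was 58.3% (136 higher and 190 lower) when ratios were centred on a running median over the level. Low loci lay further out. Between 1 and 2 FPKM, the median ratio was -0.15, with 2.51% of 1713 loci past 2-fold on the higher side and 6.95% on the lower. At 100 FPKM and above it was 0.05, with 0.143% and 0.0714% of 1401 loci.

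**Figure D1:**
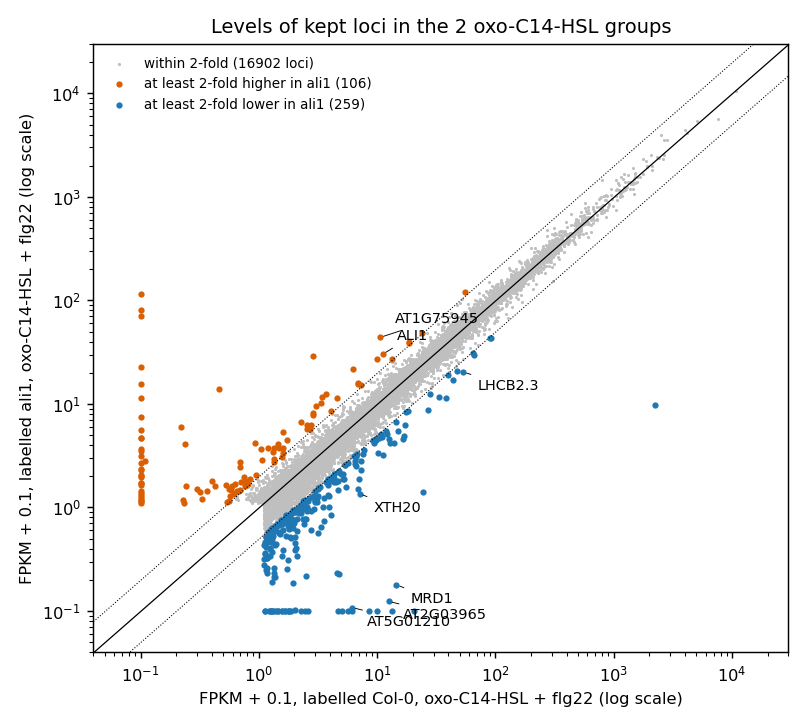
Each point is 1 kept locus, with its FPKM plus 0.1 under the Col-0 label on the x axis and under the *ali1* label on the y axis, both log scaled, after oxo-C14-HSL and flg22. The solid line is the median ratio and the dotted lines lie 2-fold from it, with 106 loci above (orange) and 259 below (blue), most of them at low levels, and *ALI1* lies above at 11.1 against 30.1 FPKM.

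Of the 106 higher loci, 69 were under 5 FPKM in both groups, 53 had under 300 exon bases, and 30 were listed at 0 under Col-0. Of the 259 lower loci, 193 were under 5 FPKM, 63 were that short, and 29 were listed at 0 under *ali1*. Noncoding classes were past 2-fold more often than genes for proteins. Among 23 kept snoRNA loci, 9 were higher and 7 lower, and among 22 antisense RNA loci 7 were higher and 10 lower. Of 14973 loci that hold 1 protein-coding gene, 47 were higher (0.314%) and 177 lower (1.18%). When these were held to 5 FPKM in either group, 16 of 11054 were higher (0.145%) and 51 lower (0.461%). The loci past 2-fold were spread over all 5 chromosomes, with 0.454% to 0.799% of the kept loci of a chromosome higher and 1.26% to 1.83% lower.

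A small number of loci differed by label with both pretreatments. Past 2-fold in the same direction with oxo-C14-HSL and with acetone were 21 higher and 31 lower loci, of which 18 reached 5 FPKM in any group. *MRD1* (AT1G53480, chr1:19963047-19964712 on the minus strand), named for its low level in a methionine-overaccumulating mutant, stood at 14.5 FPKM under Col-0 and 0.0789 FPKM under *ali1* after oxo-C14-HSL. After acetone it stood at 13.2 and 0.328 FPKM. The locus that holds *HEI10*, a gene for a ring-domain protein of meiotic crossing over that lies on the plus strand at chr1:19963267-19966952 and overlaps *MRD1*, was at 24.2 FPKM under Col-0 and 1.32 FPKM under *ali1*, and at 24.1 and 1.18 FPKM after acetone. *HEI10* shares this locus with AT1G07887 and lies outside the rule for named genes: it was chosen after its values were seen. Its ratio was -4.08 with oxo-C14-HSL and -4.20 with acetone, against -6.32 and -4.92 for *MRD1*. The sources used do not say whether the counting used strand, so that reads of *MRD1* and *HEI10* cannot be told apart where they overlap.

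On the other side of *HEI10*, *MUM4*, which encodes a rhamnose synthase of seed coat mucilage and was also chosen after its values were seen, stood at 24.2 FPKM under Col-0 and 29.2 FPKM under *ali1* (ratio 0.30). Apart from *HEI10*, 19 other kept loci lay within 50 kb of *MRD1*, and 1 of them was past 2-fold, the noncoding locus AT1G07913 at 1.98 and 0.303 FPKM.

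**Figure D2:**
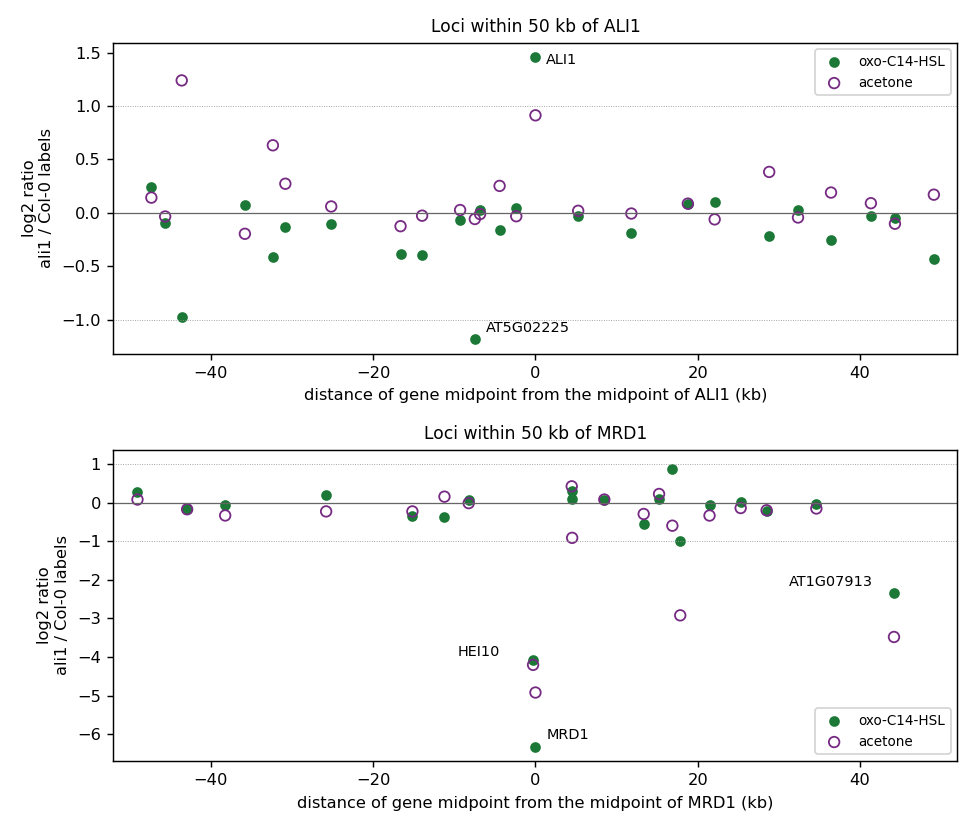
Points are kept loci within 50 kb of *ALI1* (upper panel) and *MRD1* (lower panel), placed by the distance between gene midpoints in kb on the x axis, with the log2 ratio of the *ali1* to the Col-0 label on the y axis (filled, oxo-C14-HSL and flg22; open, acetone and flg22; dotted lines at 2-fold). *ALI1* stands at 1.46 among 24 neighbours between -1.18 and 0.24, and *MRD1* at -6.32 lies beside *HEI10* at -4.08.

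Further protein-coding loci behaved alike with either pretreatment. AT2G03965, of unknown function, stood at 12.4 FPKM under Col-0 and 0.0238 FPKM under *ali1* after oxo-C14-HSL, and at 8.97 and 0.0366 FPKM after acetone. AT5G46085, likewise uncharacterised and with 149 exon bases, was at 6.08 and 6.69 FPKM in the Col-0 groups and listed at 0 in both *ali1* groups. In the opposite direction, AT1G75945 stood at 10.5 FPKM under Col-0 and 43.8 FPKM under *ali1* after oxo-C14-HSL (4.21-fold), and at 10.0 and 39.0 FPKM after acetone. AT2G18685 was at 6.13 and 21.7 FPKM, and at 7.59 and 18.104 FPKM after acetone. These loci were picked for being past 2-fold the same way with both pretreatments, so that values lying apart by label are no added support. AT2G03965 shares its position on chromosome 2 with the noncoding AT2G04655, which was 4.53 FPKM under Col-0 and listed at 0 under *ali1*.

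AT5G01210, for an acyltransferase-like protein, was low in 1 of the 4 groups. It was at 6.04 FPKM under Col-0 and at 0.00786 FPKM under *ali1* after oxo-C14-HSL, but at 12.8 and 12.3 FPKM after acetone. This locus has 1802 exon bases, so that the low value is that of about 1 fragment over 3 libraries, while the same label had a level like that of Col-0 after acetone.

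Heat shock genes were higher under the *ali1* label after oxo-C14-HSL. All 25 kept members of this list of 29 had a ratio above 0, with a median of 0.36 (1.29-fold), against a median of 0 over all kept loci. Their ratios ran from 0.14 to 0.87, 4 were past 1.5-fold higher, where 1.73% of all kept loci were, and 0 past 2-fold. Most of these genes encode chaperones that bind unfolded proteins, and others are regulators such as *HSFA2* or the enzyme *GolS1*. The heat shock factors that switch such genes on bind inverted repeats of GAA in their promoters. The promoters of the 4 members with such an element close to the gene start are shown, read from the TAIR10.1 genome for the 150 bases upstream of the annotated start, 5′ to 3′ on the gene's strand, with the element in capitals. They lie at chr1:19980149-19980298 (plus strand) for AT1G53540, chr2:11135474-11135623 (plus strand) for *HSFA2*, chr2:19370479-19370628 (minus strand) for *GolS1* and chr3:19264991-19265140 (plus strand) for *HSFA7A*.
AT1G53540: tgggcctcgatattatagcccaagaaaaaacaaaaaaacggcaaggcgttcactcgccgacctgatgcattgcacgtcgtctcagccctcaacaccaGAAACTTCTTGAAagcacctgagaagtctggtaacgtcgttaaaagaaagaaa
HSFA2: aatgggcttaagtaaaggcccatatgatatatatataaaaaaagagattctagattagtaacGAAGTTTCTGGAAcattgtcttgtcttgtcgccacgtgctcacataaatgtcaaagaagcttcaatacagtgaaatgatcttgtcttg
GolS1: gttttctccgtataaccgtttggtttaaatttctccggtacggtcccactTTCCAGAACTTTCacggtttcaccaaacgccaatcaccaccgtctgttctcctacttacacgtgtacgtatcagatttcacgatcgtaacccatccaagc
HSFA7A: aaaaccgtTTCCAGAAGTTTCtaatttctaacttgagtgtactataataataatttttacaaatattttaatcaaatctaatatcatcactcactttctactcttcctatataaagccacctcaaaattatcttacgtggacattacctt

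The element searched was GAA, TTC and GAA in this order, each separated by NN (any 2 bases), or its complement TTC, GAA and TTC, and it stood in 4 of the 25 heat shock promoters (16%) and in 58 of 27561 promoters of protein-coding genes of the same length (0.21%). A match is a description of the letters only. AT1G53540, a small heat shock protein gene, carries the element 53 bases before its start and had the highest ratio of the list. It stood at 32.6 FPKM under Col-0 and 58.6 FPKM under *ali1* (1.82-fold). *HSFA2*, a heat shock factor that sustains the response, stood at 98.7 and 134.9 FPKM, and *GolS1*, a galactinol synthase, at 39.2 and 49.2 FPKM. *HSFA7A* was at 36.4 and 41.6 FPKM, near the low end of the list. The small heat shock protein genes AT2G29500 (130.9 and 205.8 FPKM) and *HSP17.6II* (59.0 and 91.5 FPKM) have no match in their windows and had ratios of 0.68 and 0.66. *HSP70*, a cytosolic chaperone, was at 1051 FPKM under Col-0 and 1442 FPKM under *ali1*.

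With acetone the order of the labels was the other way round. The median ratio of the 25 members was -0.63, with 22 of them below 0 and 16 past 1.5-fold lower under *ali1*, where 1.9% of all kept loci were. AT1G53540 then stood at 72.4 FPKM under Col-0 and 46.4 FPKM under *ali1*, and *HSP17.6II* at 126.7 and 70.8 FPKM. Across the 4 groups, 21 of the 25 genes were highest in the Col-0 acetone group, and 16 were lowest in the Col-0 oxo-C14-HSL group. Over the 17265 kept loci not marked as too deep for the authors' program, these counts were 6351 and 4055. The 2 *ali1* values of AT1G53540 (46.4 and 58.6 FPKM) lay between its 2 Col-0 values.

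Most listed genes of cell division were lower under the *ali1* label after oxo-C14-HSL, though their sum was not (291.2 FPKM under Col-0 and 303 FPKM under *ali1*). Of 32 listed, 25 were kept, and 22 of these had a ratio below 0, with a median of -0.49 (1.41-fold lower). 7 were past 1.5-fold lower and 0 past 1.5-fold higher, beside 4.55% and 1.73% of all kept loci. Most are low in whole seedlings, with a median of 3.80 FPKM under Col-0 and 2.04 FPKM under *ali1*. Many genes of the G2 and M phases carry the MSA core AACGG, bound by MYB factors. It is shown in capitals, on either strand, in the 150 bases upstream of *CYC1BAT* (chr5:1861704-1861853, minus strand), a mitotic B-type cyclin with 4 such matches, shown as the member with the most matches among those lower under *ali1*.
CYC1BAT: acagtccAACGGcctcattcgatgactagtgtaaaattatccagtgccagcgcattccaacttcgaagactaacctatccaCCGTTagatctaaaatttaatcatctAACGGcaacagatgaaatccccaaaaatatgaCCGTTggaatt

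AACGG or its complement CCGTT stood in 12 of the 25 cell cycle promoters (48%) and in 14% of all promoters of this length, as well as in 32% of those of the heat shock list. Members with matches lay on both sides of 0, since *CYC1BAT* had a ratio of -0.74, while *ICK1*, an inhibitor of cyclin-dependent kinases with 5 matches, had 0.21 and the locus of the D-type cyclin *CYCD3* shared with AT4G34150, with 1 match, had 0.31. *CDC20.1*, an activator of the anaphase-promoting complex, was at 2.35 FPKM under Col-0 and 1.09 FPKM under *ali1* (ratio -1.02) with no match in its window. *SYP111*, the cytokinesis syntaxin also called KNOLLE, was at 3.80 and 2.04 FPKM (ratio -0.85), and *PCNA1*, the sliding clamp of DNA replication, at 8.75 and 4.90 FPKM (ratio -0.80). In the acetone groups *SYP111* stood at 1.83 and 1.91 FPKM, *PCNA1* at 4.36 and 5.58 FPKM, and the list's median was 0.08 over 20 kept members. Some of the 25 were kept through the Col-0 oxo-C14-HSL group alone, such as *TPX2* at 1.09 FPKM against 0.520 FPKM under *ali1*. In 22 of the 25 genes the Col-0 oxo-C14-HSL group was the highest of the 4, beside 5157 of 17265 kept loci. Raising the minimum to 5 FPKM left a median of -0.20, so that the size of this difference rests on the low members.

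Auxin genes and genes for wall loosening also tended to be lower under *ali1*. Of 34 kept auxin genes 25 had a ratio below 0 (median -0.19), with 8 past 1.5-fold lower and 0 higher, against the same 4.55% and 1.73% over all kept loci. *SAUR63*, of a family of small auxin-induced proteins that promote cell expansion, stood at 9.63 FPKM under Col-0 and 5.23 FPKM under *ali1*. *GH3.3*, an enzyme that conjugates auxin to amino acids, was at 11.1 and 5.94 FPKM (ratio -0.87), and at 4.47 and 8.64 FPKM after acetone (ratio 0.98). AT4G38860, annotated as SAUR-like, was at 4.06 and 1.88 FPKM, and *SAUR24* at 1.203 and 0.269 FPKM. *SAUR24* was thus kept through the Col-0 group alone, which favours a low ratio. The Col-0 oxo-C14-HSL group was the highest of the 4 in 21 of the 34, and in 5157 of 17265 kept loci.

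Expansins slide cellulose fibres apart, and XTH enzymes cut and rejoin xyloglucan. Of their 23 kept genes 16 had a ratio below 0 (median -0.24), with 6 past 1.5-fold lower and 2 past 1.5-fold higher (4.55% and 1.73% over all kept loci). *XTH20* was the furthest, at 7.004 FPKM under Col-0 and 1.25 FPKM under *ali1* (5.17-fold lower), and its acetone values were reversed, at 1.42 and 6.16 FPKM. *XTH15* was at 2.00 and 0.669 FPKM, so that it was kept through the Col-0 group alone, and *EXPA1* was at 28.6 and 14.4 FPKM (1.95-fold lower). *XTH18* went the other way, at 47.2 and 90.3 FPKM (ratio 0.96).

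Extensins, structural glycoproteins that cross-link the wall, had 7 kept members of 21, with a median of -0.22. The extensin-like AT1G26240 stood at 4.69 FPKM under Col-0 and 0.127 FPKM under *ali1* (ratio -4.38), but at 0.0816 and 0.289 FPKM after acetone, so that it was high in the Col-0 oxo-C14-HSL group alone among the 4. The most abundant member, *EXT4*, was at 1502 and 1716 FPKM. After acetone 8 of 21 were kept, some of them only through the *ali1* group, such as AT1G23720 at 0.223 and 2.52 FPKM and AT3G28550 at 0.277 and 1.74 FPKM.

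**Figure D3:**
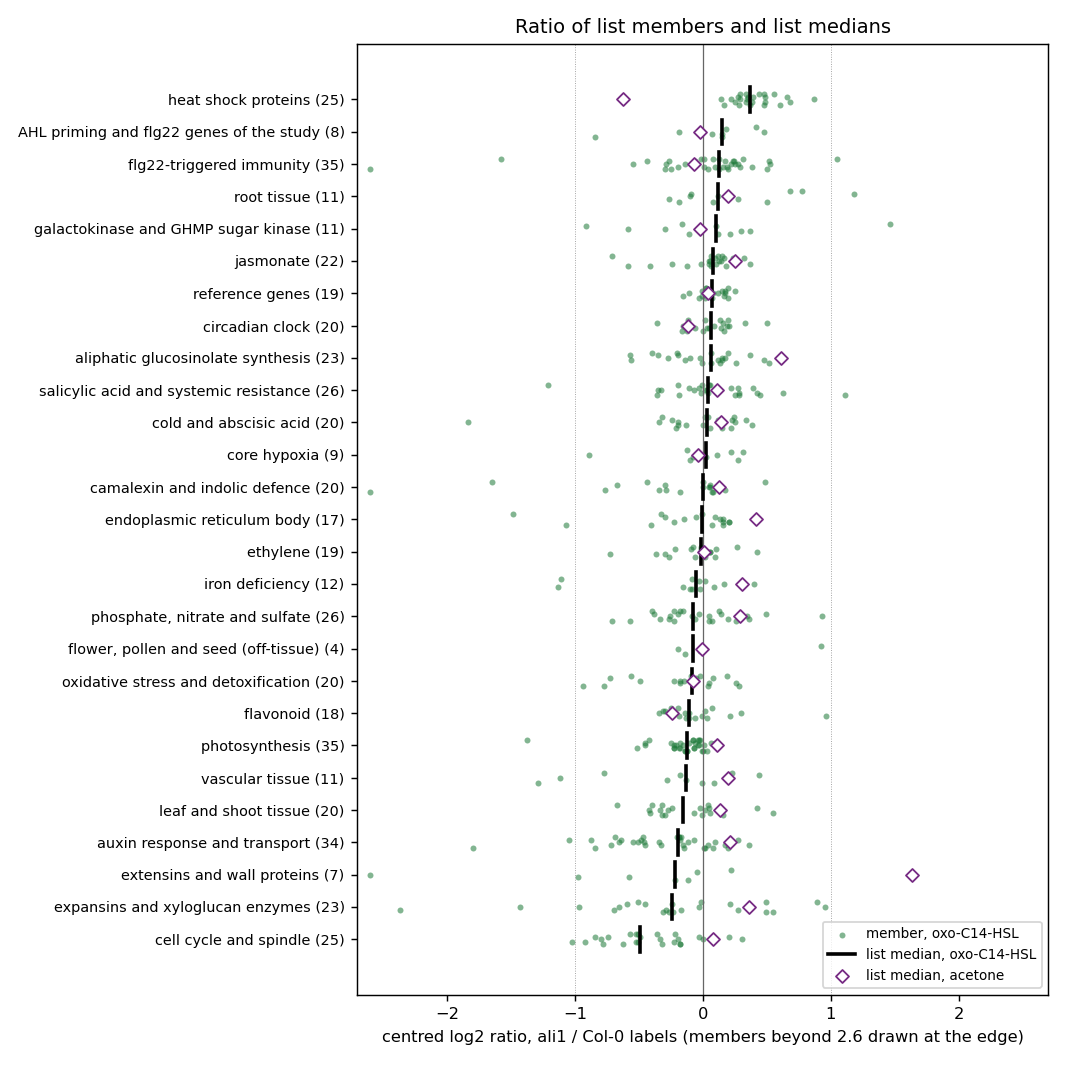
Each row is 1 gene or marker list with its number of kept members, ordered by median. Points are members and black bars list medians of the centred log2 ratio of the *ali1* to the Col-0 label after oxo-C14-HSL and flg22 (x axis), open diamonds are medians after acetone and flg22, and dotted lines mark 2-fold. Heat shock proteins (0.36, acetone -0.63) and cell cycle genes (-0.49, acetone 0.08) lie at the ends.

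The immunity genes that answer flg22 were on the whole at similar levels. Of 35 kept, 23 were above 0 and 12 below (median 0.12). Past 2-fold were 1 higher and 2 lower, beside 0.614% and 1.5% of all kept loci. *WRKY22* and *WRKY29*, early transcription factors of flagellin signalling, stood at 573.7 and 135.4 FPKM under Col-0 and at 640.6 and 177.5 FPKM under *ali1* (ratios 0.18 and 0.41). The MAP kinase gene *MPK6* was at 108.3 and 118.2 FPKM, and the locus of the glutathione transferase gene *GSTF8*, which it shares with AT2G47720, at 1516 and 1650 FPKM. *PHI-1*, first known as a phosphate-induced gene, was higher under *ali1*, at 23.9 and 48.8 FPKM (2.07-fold). The peroxidase gene AT1G14550 was at 3.94 and 2.62 FPKM. After acetone *WRKY22* was at 780.3 and 643.8 FPKM and *WRKY29* at 193.4 and 184.9 FPKM.

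The members furthest down were enzymes of indolic antimicrobials. *CYP71A12*, which turns indole-3-acetaldoxime into indole-3-acetonitrile, stood at 12.7 FPKM under Col-0 and 4.13 FPKM under *ali1* (2.99-fold lower), and at 2.97 and 10.0 FPKM after acetone, the reverse order. *CYP82C2*, of the hydroxylated indole carbonyl nitrile branch, was at 1.86 and 0.0868 FPKM, a level of about 9.89 fragments, and at 0.217 and 0.390 FPKM after acetone. It was kept through the Col-0 group alone. In the camalexin and indolic list, 2 of 20 kept members were past 2-fold lower and 4 past 1.5-fold lower (1.5% and 4.55% over all kept loci). Past 1.5-fold higher were 0, and the median was 0.00. Of the lower ones, AT1G26390, *MYB122* and *CYP81F3* were under 1 FPKM under *ali1* and were kept through the Col-0 group alone. Among all loci between 1 and 2 FPKM, 6.95% were past 2-fold lower. AT1G26390, annotated as a berberine-type oxidoreductase, was at 2.42 and 0.118 FPKM (ratio -3.51). *MYB122*, a regulator of indolic glucosinolates, was at 1.15 and 0.293 FPKM. *PAD3*, which makes camalexin in its final step, was at 2.25 and 1.35 FPKM, and *CYP81F3*, which hydroxylates indolic glucosinolates, at 1.11 and 0.601 FPKM. All of these were higher in the Col-0 oxo-C14-HSL group than in the Col-0 acetone group, but their low ratios had picked them. Over the 20 kept members, the Col-0 oxo-C14-HSL group was the highest of the 4 in 2 and the Col-0 acetone group in 8. Over all kept loci these counts were 5157 and 6351 of 17265.

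Salicylic acid genes were divided, with 15 of 26 above 0 and a median of 0.04. *NIMIN1*, whose protein binds the salicylic acid co-activator NPR1, was at 0.586 FPKM under Col-0 and 1.35 FPKM under *ali1*, and *NIMIN-2* at 3.51 and 5.38 FPKM. *HCHIB*, a basic chitinase, was lower at 6.47 and 2.69 FPKM (2.31-fold). *DFR*, of anthocyanin synthesis, stood at 57.2 and 49.4 FPKM (ratio -0.19), and at 53.9 and 28.7 FPKM after acetone (ratio -0.86). The thaumatin-like gene *TLP1* (AT4G24180) was at 1.35 and 0.696 FPKM. The reference gene *PEX4*, a ubiquitin-conjugating enzyme, was at 39.6 and 40.9 FPKM, and none of 19 reference genes was past 1.5-fold, with a median of 0.07. *PAP1*, the MYB activator of anthocyanin genes, was at 4.05 and 7.86 FPKM (ratio 0.96).

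Jasmonate genes had 16 of 22 members above 0 (median 0.08), with *ORA59* (3.25 and 2.096 FPKM) and *JAZ8* (1.05 and 0.590 FPKM) past 1.5-fold lower. *JAZ8* was kept through the Col-0 group alone, just above the minimum of 1 FPKM. In the ethylene list 1 of 19 was past 1.5-fold, *ERF2* at 12.8 and 7.55 FPKM. Over all kept loci, 4.55% were past 1.5-fold lower. Aliphatic glucosinolate genes had 0 of 23 past 1.5-fold (median 0.06), whereas 15 were past 1.5-fold higher after acetone (median 0.61), beside 5.64% of all kept loci there.

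Photosynthesis genes leaned slightly lower. All 35 were kept, 31 were below 0 and the median was -0.12, with 1 past 2-fold lower, beside 1.5% of all kept loci. That gene was *LHCB2.3*, of the light-harvesting antenna of photosystem II, at 53.3 FPKM under Col-0 and 20.22 FPKM under *ali1* (2.59-fold lower), while its acetone values of 27.9 and 26.1 FPKM lay between these. The near-identical *CAB2* (1479 and 1062 FPKM) and *CAB3* (1047 and 750.2 FPKM) may share reads, and *PETE1*, a plastocyanin, was at 41.4 and 28.5 FPKM. After acetone the median of the photosynthesis list was 0.11, with 26 of the 35 above 0. In 21 of the 35 the Col-0 oxo-C14-HSL group was the highest of the 4, beside 5157 of 17265 kept loci. The leaf marker sum was also lower under *ali1* (18561 against 20916 FPKM), but higher after acetone (19998 against 18936 FPKM). It holds photosynthesis genes such as *CAB1* (7667 FPKM under Col-0 and 5642 FPKM under *ali1*), so that it is no separate measure of leaf tissue. The part of leaf tissue in these ratios was not tested.

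The root markers furthest up under the *ali1* label were genes of the endodermis. *CASP1*, a membrane protein that lays down the Casparian strip, stood at 6.85 FPKM under Col-0 and 15.4 FPKM under *ali1* (2.26-fold), and at 10.0 and 9.02 FPKM after acetone. *CASP2* was at 1.77 and 2.85 FPKM, *PER64*, a peroxidase of the same structure, at 3.56 and 6.07 FPKM, and *MYB36*, their regulator, at 2.84 and 3.99 FPKM. These are the 4 of 11 kept root markers with the largest ratios. The list as a whole had 7 members above 0 and 4 below, with a median of 0.11, and of -0.10 with no minimum level. The vascular list had 4 of 11 above 0 and a median of -0.13. Its furthest members were the xylem cysteine protease genes *XCP2* at 4.22 and 1.64 FPKM and *XCP1* at 1.05 and 0.420 FPKM. Both were past 2-fold lower, where 1.5% of all kept loci were, whereas the xylem metacaspase gene *MC9* was at 0.759 and 1.05 FPKM (ratio 0.44). *XCP1* was kept through the Col-0 group alone, and *MC9* through the *ali1* group alone. Of all loci between 1 and 2 FPKM, 6.95% were past 2-fold lower.

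Other loci past 2-fold were enzymes and secreted proteins of several kinds. *BGLU21* (3.43 and 1.14 FPKM) and *BGLU22* (9.90 and 4.58 FPKM), β-glucosidases of endoplasmic reticulum bodies, were past that fold on the lower side, and both were higher under *ali1* after acetone (0.361 against 4.35 FPKM and 5.38 against 10.1 FPKM). The iron-deficiency genes *NAS4*, a nicotianamine synthase (1.19 and 0.481 FPKM), and AT3G13610, a 2-oxoglutarate-dependent oxygenase (9.23 and 4.15 FPKM), were also past 2-fold lower, with acetone ratios of 1.83 and 1.08. Past 2-fold lower were thus 2 of 17 kept endoplasmic reticulum body genes and 2 of 12 kept iron-deficiency genes, beside 1.5% of all kept loci. *NAS4* was kept through the Col-0 group alone. The germin-like *GLP9* was at 16.4 and 4.51 FPKM (3.52-fold lower), the dirigent protein gene *DIR5* at 11.1 and 3.11 FPKM (3.42-fold), the lipid-transfer-like AT5G01870 at 6.82 and 1.39 FPKM (4.56-fold) and the cupredoxin gene AT2G15780 at 6.93 and 1.80 FPKM. Short of 2-fold, *NIA1*, a nitrate reductase, was at 123.3 and 73.9 FPKM (ratio -0.71), while *RNS1*, a ribonuclease induced by phosphate shortage, was at 2.25 and 4.297 FPKM.

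The remaining stress and nutrient lists had medians near 0. Beside their counts, 1.73% of all kept loci were past 1.5-fold higher, 4.55% past 1.5-fold lower and 1.5% past 2-fold lower. The clock list had 0 of 20 members past 1.5-fold (median 0.07), and the hypoxia list 1 of 9 (median 0.03), the haemoglobin gene *HB1* at 1.31 FPKM under Col-0 and 0.651 FPKM under *ali1*. In the cold and abscisic acid list 1 of 20 was past 2-fold (median 0.03), *LTP3*, a lipid transfer protein gene, at 1.08 and 0.225 FPKM, and at 0.691 and 2.602 FPKM after acetone. Oxidative stress and detoxification genes had 3 of 20 past 1.5-fold lower (median -0.08), with the glucosyltransferase gene *UGT74E2* at 1.90 and 0.929 FPKM. *HB1*, *LTP3* and *UGT74E2* were each kept through the Col-0 group alone. The flavonoid list had a median of -0.11 over 18 members, with *PAP1* alone past 1.5-fold, and the phosphate, nitrate and sulfate list a median of -0.08 over 26, with *NIA1* lower and *RNS1* higher past 1.5-fold. Endoplasmic reticulum body genes had a median of -0.01 over 17, iron-deficiency genes -0.06 over 12, and leaf markers -0.15 over 20.

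**Figure D4:**
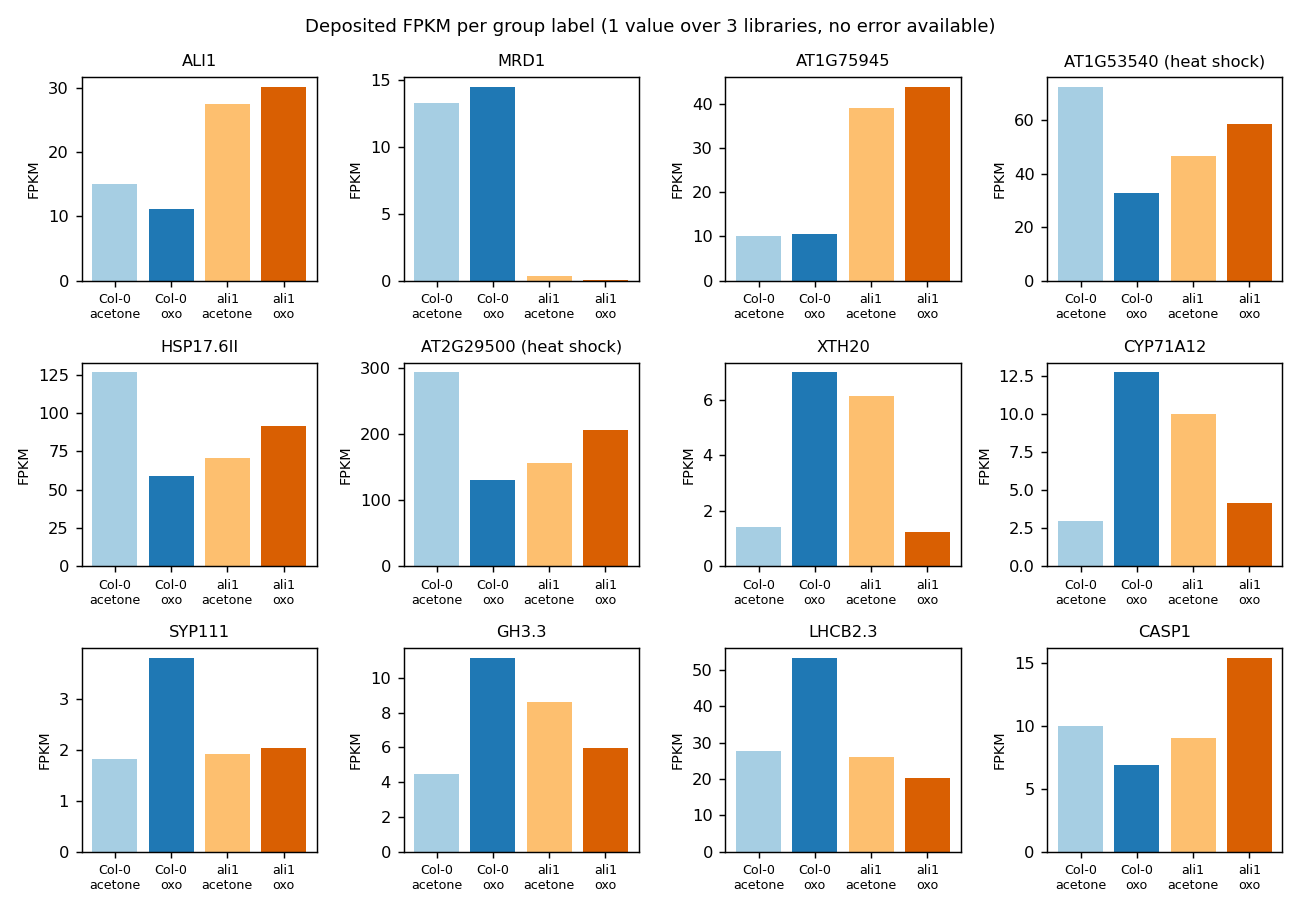
Bars give the deposited FPKM (y axis, from 0) of 12 genes in the 4 groups by label, Col-0 acetone, Col-0 oxo-C14-HSL, *ali1* acetone and *ali1* oxo-C14-HSL, all with flg22; each bar is 1 value over 3 libraries, so there are no error bars. *ALI1*, *MRD1* and AT1G75945 differ by label with both pretreatments, whereas *XTH20* (7.004 against 1.25 FPKM after oxo-C14-HSL, 1.42 against 6.16 FPKM after acetone) and *CYP71A12* change order with the pretreatment.

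Set side by side, the ratios of the oxo-C14-HSL and the acetone pair had little in common. The acetone pair, which shares no library with the oxo-C14-HSL pair, had more loci higher under *ali1* (312, 1.83% of 17066 kept) than lower (131, 0.768%), the opposite balance. Over 16853 loci kept in both, the ratios had a Pearson r of 0.023 and a Spearman rho of 0.073, a description across loci, which are not independent replicates and share the normalization of their tables. Each cuffdiff run holds the oxo-C14-HSL and the acetone group of 1 label. Of the 106 higher loci, 21 (19.8%) were past 2-fold the same way after acetone and 8 (7.55%) the other way. Of the 259 lower loci, 31 (12.0%) were past 2-fold the same way and 40 (15.4%) the other way.

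**Figure D5:**
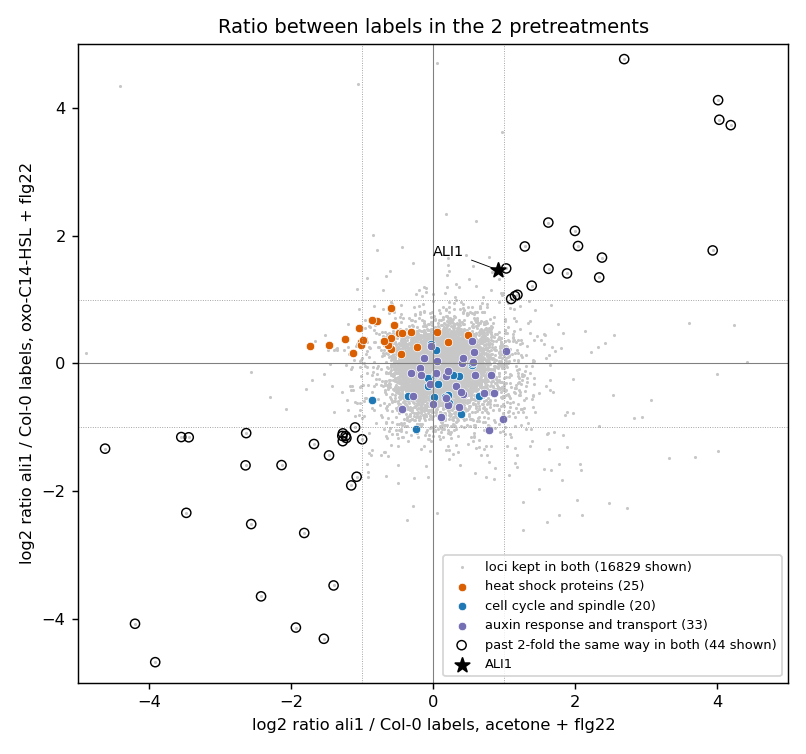
Each grey point is 1 of 16829 loci kept in both pairs and within the axis limits, with the log2 ratio of the *ali1* to the Col-0 label after acetone on the x axis and after oxo-C14-HSL on the y axis, dotted lines at 2-fold. Black rings mark the loci past 2-fold the same way in both (44 shown), heat shock genes (orange) lie mostly in the upper left, at medians of -0.63 and 0.36, and 24 loci lie outside the axes.

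Which of the 4 groups stood out was also read for the loci past 2-fold, as a description, since the oxo-C14-HSL values chose them. Among the 259 lower loci the Col-0 oxo-C14-HSL group was the highest of the 4 in 211, and the *ali1* oxo-C14-HSL group the lowest in 156. Among the 106 higher loci the *ali1* oxo-C14-HSL group was the highest in 84, and the Col-0 oxo-C14-HSL group the lowest in 66. Over 17265 kept loci, the Col-0 oxo-C14-HSL group was the highest in 5157 and the lowest in 4055. The *ali1* oxo-C14-HSL group was the highest in 3027 of them and the lowest in 3941. Of the 51 lower protein-coding loci with at least 5 FPKM, 43 were highest in the Col-0 oxo-C14-HSL group, 3 were past 2-fold lower under *ali1* after acetone as well, and 8 were past 2-fold higher there. Of the 16 higher ones, all 16 were highest in the *ali1* oxo-C14-HSL group and 4 were past 2-fold higher after acetone.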

How the data were processed

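The study sequenced 12 mRNA libraries, 3 for each genotype and pretreatment label. Per the labels and the submitters' processing notes, the authors mapped 100 bp single-end reads to TAIR10 with RNAStar 2.4.0d-2, assembled and merged transcripts with Cufflinks 2.2.1.0 and with cuffmerge 2.2.1.0, and compared groups with Cuffdiff 2.2.1.5. FPKM were deposited as 1 value per group, normalized by the authors within each of 2 runs, 1 per genotype label. The fold changes, test statistics, p-values and q-values that the authors deposited compare oxo-C14-HSL with acetone and were not used.

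Loci were joined on their identifier. Ratios were log2 of (*ali1* + 0.1)/(Col-0 + 0.1), less the median over loci with at least 1 FPKM in either group (-0.02 for oxo-C14-HSL, -0.04 for acetone). Because the pseudocount adds to both values, a ratio understates the difference of low loci. A locus under 1 FPKM in 1 group was kept through the other group alone, which favours loci with large ratios. With 1 value per group no test was run, and loci were counted past 2-fold. From the smallest values, 1 FPKM on 1 kb corresponds to about 60.6 to 65.1 fragments per group over 3 libraries, an approximation that gives no interval. Of the loci, 44 were marked in the *ali1* table as too deep for the authors' program, 2 of them kept.

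The 23 gene lists and 4 marker lists had 684 entries, of which 678 matched a locus, and 1646 loci hold more than 1 name and cannot be split. The comparison, its members and the lists were chosen with earlier results of these data known. Genes named were *ALI1*, its kinase list and the genes the study measured, the 15 highest and 15 lowest ratios among loci with 1 name and at least 5 FPKM in either group, up to 4 members per list with the largest ratio, loci with at least 5 FPKM in 1 group and under 0.1 FPKM in the other, the neighbours of *ALI1*, and the 5 largest differences between the 2 ratios in each direction. The locus of *TLP5*, which the study measured, is not given in the sources used. AT4G24180, named *TLP1*, stands in the list of study genes but was not taken as *TLP5*. Other genes are marked in the text as named after their values were seen. Promoter sequences were read from the TAIR10.1 genome, whose chromosome names and versions equal those of the tables. Python 3.11.15, numpy 2.4.6, pandas 2.3.3, scipy 1.17.1 and matplotlib 3.10.9 were used, and the ratio and count steps were tested on simulated data. Alternatives were the pseudocount, the minimum level, the centring, the fold threshold, the handling of loci with several names, and the acetone groups.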

Additional observations from a re-analysis of the deposited data

How the results depend on the processing

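With 106 higher and 259 lower loci as the starting point, the counts were 299 and 786 at a 1.5-fold threshold, 45 and 63 at 4-fold, 37 and 73 with a minimum of 5 FPKM, 391 and 683 with no minimum, 67 and 97 with a pseudocount of 1, and 312 and 131 in the acetone groups. Leaving out loci under 300 exon bases, chosen after seeing the data, left 51 higher and 194 lower. Without loci listed at 0 in either group, also chosen after seeing the data, they were 76 and 230. Centring and the smaller pseudocount kept both counts within 1.5-fold. The ratio of *ALI1* was 1.46, and 0.91 in the acetone groups. Under the settings run on the oxo-C14-HSL groups, 4 of 174 named genes changed sign, all with running-median centring: AT5G14440 (0.03 to -0.0064), AT5G14480 (-0.03 to 0.00016), *GEA6* (-0.19 to 0.27) and *SEP3* (-0.14 to 0.02).

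List medians moved by over 0.1 on the log2 scale in these cases. With the mean in place of the median, auxin genes were at -0.32, camalexin and indolic genes at -0.35, cold and abscisic acid genes at -0.071, endoplasmic reticulum body genes at -0.17, extensins at -0.87, flg22 immunity genes at -0.041, flower markers at 0.14, iron genes at -0.17, root markers at 0.27 and vascular markers at -0.26. With a minimum of 5 FPKM, cell cycle genes were at -0.20, hypoxia genes at 0.14, extensins at -0.10, flower markers at 0.43 and sugar kinase genes (with *ALI1*) at -0.022. With no minimum, auxin genes were at -0.34, extensins at -0.58 and root markers at -0.10. With a pseudocount of 1, cell cycle genes were at -0.30. With running-median centring, cell cycle genes were at -0.36, hypoxia genes at 0.15, expansins and xyloglucan enzymes at -0.14 and flower markers at 0.14. The heat shock median lay between 0.33 and 0.41 in all settings run on the oxo-C14-HSL groups. The cause of these shifts was not tested.

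No paired analysis was possible because the tables hold 1 value per group and none per library, and for the same reason no replicate was left out. A locus with 1 kb of exon at 1 FPKM rests on about 60.6 to 65.1 fragments per group, and a shorter one on fewer.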

Other observations

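Short noncoding loci held the extreme ratios. *MIR414*, with 108 exon bases, was listed at 0 in the Col-0 oxo-C14-HSL group and stood at 115.5 FPKM in the *ali1* oxo-C14-HSL group, at 106.5 FPKM in the Col-0 acetone group and at 109.3 FPKM in the *ali1* acetone group. The snoRNA locus AT1G74453 (110 exon bases) was at 80.5 FPKM in the *ali1* oxo-C14-HSL group and 74.6 FPKM in the Col-0 acetone group and listed at 0 in the other 2. The snoRNA locus AT3G04165 (111 exon bases) was at 71.1 FPKM in the *ali1* oxo-C14-HSL group alone. AT4G39364 (122 exon bases) was at 20.4 FPKM in the Col-0 oxo-C14-HSL group and 17.3 FPKM in the *ali1* acetone group, and listed at 0 in the others. *SNOR111* (130 exon bases) was at 9.92 FPKM in the Col-0 oxo-C14-HSL group and listed at 0 elsewhere. The locus of the spliceosomal RNA gene *U6.5*, shared with AT4G08735, was at 2248 FPKM in the Col-0 oxo-C14-HSL group and between 9.67 and 11.5 FPKM in the other 3 groups. The RNA was enriched by oligo-dT, which selects poly(A) tails, and its part in these values was not tested.

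Adjacent genes on chromosome 4, chosen after their values were seen, were lower together under the *ali1* label after oxo-C14-HSL. The ratios of AT4G22505, AT4G22513, AT4G22517 and AT4G22520 were -1.72, -1.34, -1.03 and -1.09, and after acetone they were 0.59, 0.72, 1.31 and 1.62. Near-identical neighbours can share reads, so that these may not be separate measurements.

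The antisense locus AT3G08170 stood at 2.76 FPKM under Col-0 and 28.7 FPKM under *ali1* after oxo-C14-HSL, and was listed at 0 and at 9.58 FPKM after acetone. AT5G08425, a long noncoding RNA locus, was at 0.118 and 5.94 FPKM, and at 0.0206 and 3.88 FPKM after acetone. AT5G35935, annotated as a pseudogene with 6504 exon bases and chosen after its values were seen, was at 0.137 and 3.96 FPKM, and at 0.137 and 3.5975 FPKM after acetone.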
